A study of Mus musculus with 17 samples.

Results

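The genes described are the potassium channel subunits and their accessory proteins, chosen by name: every probe set with a single gene symbol that begins with Kcn, then letters and a number. The rule took in 167 of 45037 mouse probe sets and 84 of 18193 named genes, and each gene was represented by its probe set with the brightest mean over the unmarked arrays, whatever the genotype. Of the 84 genes, 81 encode proteins and 3 are non-coding RNAs carried along by their names (Kcnq1ot1, Kcnmb4os1 and Kcnmb4os2).

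Potassium channels set the resting potential of a neuron, repolarise it after each spike and space its spikes. Voltage-gated Kv subunits assemble as tetramers whose gating is changed by cytoplasmic and single-pass partners, calcium-activated channels couple the membrane to calcium entry, and inward rectifiers and K2P leak channels act near rest. In the hippocampus, granule neurons of the dentate gyrus and pyramidal neurons of the CA fields fire in different patterns and are known to use different sets of these subunits.

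RNA had been hybridised to Affymetrix mouse arrays from laser-captured dentate gyrus of mice in which Foxo1, Foxo3 and Foxo4, transcription factors held in the cytoplasm by insulin signaling, had been deleted together (KO), and of wild-type mice (WT), on a mixed FVB and B6 background. Deletion was driven by human GFAP-cre, which recombines in neurons and glia alike, and the age and sex of the sampled mice are not given in the labels. There were 8 KO and 7 WT arrays, and 1 further array of each genotype whose title carries the mark CA13, which the labels do not explain. The number in each title (437 or 433, for example) is called its mark here, and a second number in the titles parts the arrays into a small series (2 KO and 2 WT) and a large series (all others). The labels do not say that marks are separate animals, so p-values measure the spread between these samples.

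Libraries of mark 433 stood apart and went against their label. On 14 arrays the mean log2 level of 12 dentate granule neuron markers lay between 11.11 and 11.31, and the mean of 13 CA pyramidal neuron markers between 7.875 and 8.575. The CA13-marked WT array of mark 437 had the reverse profile (8.033 and 10.33), and so did the unmarked KO library labelled 433 (8.042 and 10.39), whereas the CA13-marked KO library of mark 433 had the granule profile (11.17 and 7.928). KO was therefore compared with WT over 7 KO and 7 WT arrays without the library labelled 433, and values with it stand beside the results they touch. Foxo1, the check of genotype, had signals of 4970, 10100 and 19100 in WT (lowest, median and highest) and of 121, 185 and 658 in KO, a difference of -5.14 (SE 0.31) on the log2 scale with an adjusted p of 4.81e-07 by limma. Every array had been scaled to the same trimmed mean of 500.004, and the median signal of the 14 arrays ran from 88.1 to 117, while signals of different probe sets are not comparable with each other.

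To describe the levels, each gene was counted as bright where its signal exceeded the median probe set of the same array. The count is rough, because it sets different probe sets beside each other. A gene with more probe sets also had more to choose its brightest from. Kv4 genes had 3 or 4 each and KCNE genes 1 or 2, while Kcnc2, Kcnt2 and Kcnu1 had 1 each. The part of this in the counts was not tested. On all 14 arrays 39 of the 84 genes were bright (46.4%, against 50.6% of all genes), 22 were bright on none, and 23 on some. All 3 Kv3 genes, all 3 Kv4 genes and all 4 genes of the Slo family, which holds the BK channel and the sodium-activated channels, were bright on every array. At the other end, 0 of 5 KCNE genes, single-pass accessory subunits, were bright throughout, and 4 of the 5 were bright on none.

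Among voltage-gated alpha subunits, Kcna1, a low-threshold Kv1 channel of axons, had signals of 4790, 5830 and 8170 in WT and 4850, 5570 and 7190 in KO. Kcnc1, a Kv3 channel that repolarises fast spikes, had 5400, 7300 and 9880 in WT and 4760, 6720 and 10400 in KO. Kcnd2, the pore of dendritic A-type channels, had 955, 2300 and 3980 in WT and 1650, 2360 and 2880 in KO. In each of these genes the ranges of the KO and WT arrays overlapped. Of the 7 Kv1 genes, 4 were bright on all 14 arrays, and the 9 silent Kv genes, which only modify other Kv channels, held 3 such genes and 4 that were bright on none. Kcnq3, a subunit of the M-current that holds back repetitive firing, had 5860, 7560 and 8110 in WT and 5600, 6060 and 7540 in KO.

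Partners of the Kv channels were bright in part. Kcnab1, a cytoplasmic beta subunit that can inactivate Kv1 channels, had signals of 882, 1060 and 1430 in WT and 743, 1430 and 1860 in KO. Kcnip4, a calcium-binding partner of Kv4, had 959, 1250 and 1460 in WT and 643, 1350 and 1780 in KO. The lowest and the highest array of either gene were both KO. Kcnma1, the pore of the BK channel, had 772, 1210 and 2130 in WT and 1130, 1430 and 1620 in KO, and its neuronal beta subunit Kcnmb4 had 503, 606 and 1720 in WT and 504, 629 and 1470 in KO, the high values of either genotype being those of the small series.

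Of the 15 inward rectifier genes, 4 were bright on all 14 arrays and 5 on none, and of the 12 K2P genes, 4 and 1. Kcnj10, the Kir channel through which astrocytes take up potassium, had signals of 543, 787 and 976 in WT and 518, 743 and 935 in KO. Kcnk1, a K2P leak channel, had 6650, 7760 and 10800 in WT and 6010, 9150 and 12900 in KO. These genes, too, overlapped between genotypes, and Kcnk1, by its brightest probe set, was 1 of the genes that differed with the CA profile.

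The comparison that the CA13 mark implies set the CA13-marked WT array against the 7 unmarked WT arrays. Of the 84 genes, 2 were called higher (Kcnq5 and Kcnc2) and 1 lower (Kcnc4) at an adjusted p under 0.05 by limma, where 1.2% of all genes were called higher and 1.37% lower. The lone array was assumed to vary like the other arrays, and in captured tissue fewer cells of a type and less RNA per cell cannot be told apart. The median difference over the members was 0.033 on the log2 scale, against 0.02 over all genes. Members that did not pass included Kcng1 (-1.60 on the log2 scale), Kcnk1 (-1.14), Kcnn2 (0.98) and Kcna2 (0.89), which are described further below. Others were Kcnk15 (1.06), Kcnab1 (0.88), Kcnn3 (0.51), Kcnj5 (-0.99), Kcna5 (-0.94) and Kcnu1 (-0.82). Kcnn3 and Kcnj5 were dim on the CA13-marked WT array (24.3 and 4.96), and a second probe set of Kcnj5 gave 0.33. Within mark 437 Kcna5 differed by only -0.18. The 95% interval lay within a 2-fold change either way for 18 of the 84 genes, so that smaller differences in most members could not be judged from 1 array.

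Kcnc4 encodes a Kv3 subunit that inactivates fast and shortens spikes. Its signal was 149 on the CA13-marked WT array, against 3150 to 5200 on the 7 WT arrays and 4710 on the unmarked array of the same mark. Both libraries with the CA profile were low, since the library labelled 433 gave 287 and its CA13-marked counterpart gave 4310. The WT arrays were 22.8-fold higher, a log2 difference of -4.51 (SE 0.259, adjusted p = 2.97e-08 by limma). Kcnc4 had the lowest value of the 84 genes in this comparison and did not differ so by genotype, with a KO minus WT difference of -0.12 (95% interval -0.39 to 0.15). A dim second probe set of Kcnc4, with signals from 5.31 to 23.2 on the 14 arrays, showed no such difference (-0.075 on the log2 scale).

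Kcnq5 encodes a Kv7 subunit, which with Kcnq3 forms M-current channels. It went the other way, at 4620 on the CA13-marked WT array and 4280 in the library labelled 433, against 188 to 672 on the WT arrays, 254 to 429 on the KO arrays and 319 on the CA13-marked KO array. Every array with a granule profile was at 672 or below, far under both. The log2 difference was 3.31 (SE 0.412, adjusted p = 0.000231 by limma), and the other probe sets of the gene gave 1.8 and 2.7, the larger of which was also called (adjusted p = 0.00064 by limma).

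Kcnc2, a Kv3 subunit known from fast-spiking interneurons, had a signal of 4580 on the CA13-marked WT array and 4120 in the library labelled 433. The 7 WT arrays ran from 444 to 1660, the KO arrays from 330 to 1220, and the CA13-marked KO array gave 785. Both CA-profile libraries were above every other array, at a log2 difference of 2.47 (SE 0.601, adjusted p = 0.0449 by limma), but the call was lost with adjusted p from 0.0509 to 0.0701 when any of 8 arrays was left out (WT replicates 1, 2, 3 and 7, KO replicates 2, 4, 5 and 7). Markers of interneurons moved with it: over 8 of them the mean log2 level was 9.862 and 9.893 in these libraries and 9.033 to 9.765 on the 14 arrays, and 3 of 8 were above that range in each (Pvalb 777 and 799, against 242 to 493, and Vip and Sst). Gad1, found in all interneurons, went the other way in the library labelled 433, at 3260 against 3960 to 8570 on the 14 arrays, and gave 4240 on the CA13-marked WT array, while Gad2 was within its range in both. Their part in the Kcnc2 value was not tested.

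Promoter sequence is shown for the 3 called genes so that their starts can be compared. It comes from RefSeq in GRCm38.p6, at the most upstream annotated start of each gene, read 5′ to 3′ on the strand of the gene, with the 250 bases before the start in lower case and the 50 from the start on in capitals. The windows are chr3:107458849-107459148 (minus strand) for Kcnc4, chr10:112269767-112270066 (plus strand, 1 of 4 annotated) for Kcnc2 and chr1:21962601-21962900 (minus strand, 1 of 2 annotated) for Kcnq5.
Kcnc4: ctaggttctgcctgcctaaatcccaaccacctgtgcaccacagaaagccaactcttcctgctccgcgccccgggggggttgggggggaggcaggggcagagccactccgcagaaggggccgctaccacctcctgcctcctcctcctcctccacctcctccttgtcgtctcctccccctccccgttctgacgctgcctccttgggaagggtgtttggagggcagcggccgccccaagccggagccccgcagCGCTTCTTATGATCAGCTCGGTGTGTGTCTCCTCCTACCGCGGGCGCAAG
Kcnc2: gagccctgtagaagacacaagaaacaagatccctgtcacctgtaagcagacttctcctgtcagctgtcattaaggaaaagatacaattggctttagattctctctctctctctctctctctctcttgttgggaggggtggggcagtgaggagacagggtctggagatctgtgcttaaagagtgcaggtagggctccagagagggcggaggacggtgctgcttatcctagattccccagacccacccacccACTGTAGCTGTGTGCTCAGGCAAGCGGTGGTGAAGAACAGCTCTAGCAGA
Kcnq5: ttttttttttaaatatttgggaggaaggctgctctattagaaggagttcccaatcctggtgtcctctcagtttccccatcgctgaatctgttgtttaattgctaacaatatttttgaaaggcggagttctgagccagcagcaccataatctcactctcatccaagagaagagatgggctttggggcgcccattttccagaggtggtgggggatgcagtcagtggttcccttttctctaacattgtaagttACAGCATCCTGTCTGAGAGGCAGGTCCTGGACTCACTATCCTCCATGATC
The Kcnc4 window was rich in G and C (66.7%) and held 17 CpG dinucleotides. Kcnc2 (52.7%) and Kcnq5 (46%) were less so and held 3 each, beside a median of 58% over the windows of the members and 52.7% over all RefSeq windows. The FOXO binding core GTAAACA, searched on both strands, was in 0 of 89 windows of the 64 members that have one, against 3.65% of 32851 windows of all genes. A match would be a description and not a site, and its lack says only that these letters are not in these windows.

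**Figure D1:**
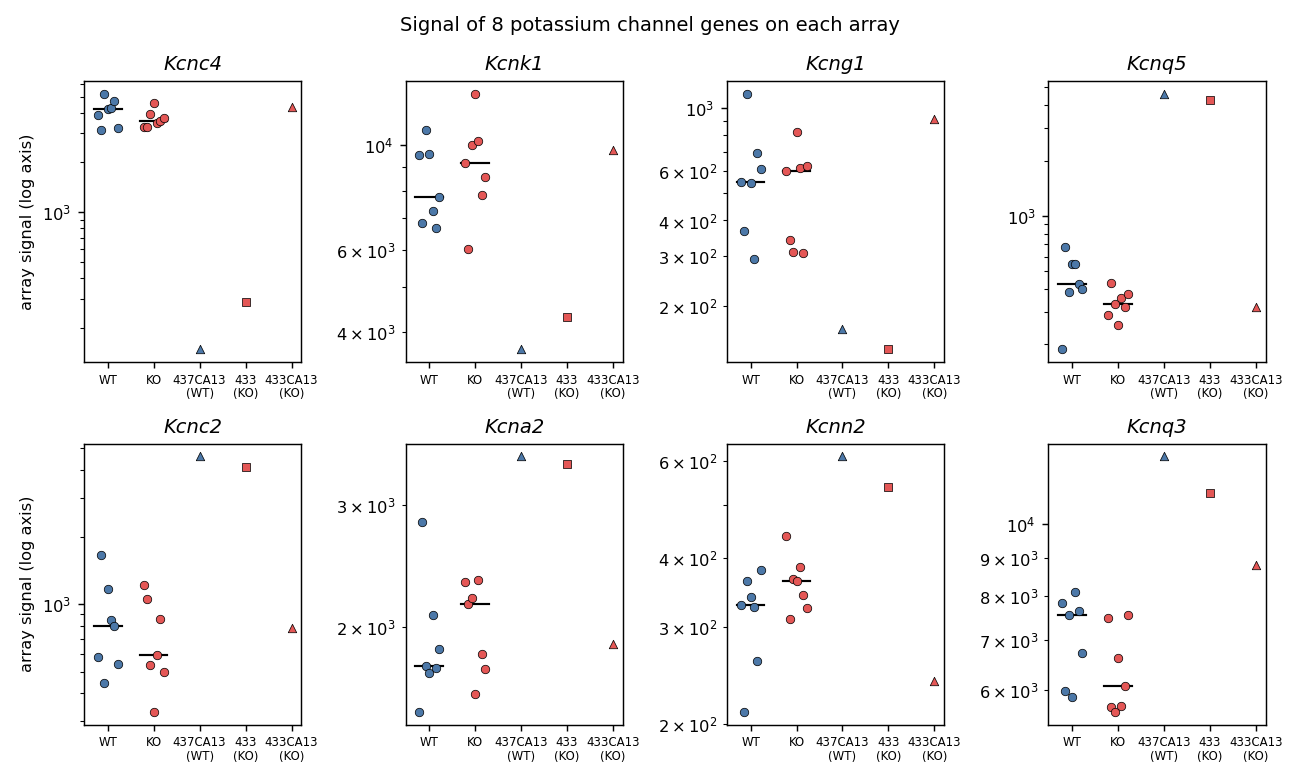
Array signal on a log axis for 8 potassium channel genes, with 1 point per array, WT in blue and KO in red, a bar at the median of 7 arrays, a triangle for a CA13-marked array and a square for the library labelled 433. In Kcnc4, Kcnk1 and Kcng1 the arrays 437CA13 and 433 sit below the 14 others, in the 5 remaining genes they sit above them, and 433CA13 lies among the 14 others except in Kcnq3, where it is above them.

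Both CA-profile libraries could be set side by side within their marks, as the CA13-marked minus the unmarked array for mark 437 and the reverse for mark 433. Kcnc4 differed by -4.73 in mark 437 and -3.83 in mark 433, Kcnq5 by 3.30 and 3.75, and Kcnc2 by 2.42 and 2.37 on the log2 scale. The 3 called genes were thus alike in both pairs, though the pairs differ in genotype and 1 of them is ordered by its markers and not by its label. Over all members 53 of 84 had the same sign in both pairs (63.1%, against 64% of all genes). After quantile normalization 12 of 84 genes lay outside the range of the 14 arrays on the same side in both CA-profile libraries (14.3%, against 13.2% of all genes), 7 above and 5 below. Among the 5 below, the dim Kcnh5 did not follow the profile. The granule-profile CA13-marked KO array was lowest of all (5.46), and the paired differences had opposite signs (-1.34 in mark 437 and 0.556 in mark 433).

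When the library labelled 433 was joined to the CA13-marked WT array by its marker profile, 12 genes were called against the 15 granule-profile arrays, 8 higher and 4 lower, where 7.28% of all genes were called higher and 6.35% lower. The voltage-gated genes among them were Kcna2, Kcnc2, Kcnq3 and Kcnq5 (higher), Kcnc4 and Kcng1 (lower). Kcnq3 had signals of 12300 and 11000, but the granule-profile CA13-marked KO array, at 8810, was also above the 14 arrays (5600 to 8110). Its paired difference was 0.582 in mark 437 and only 0.198 in mark 433. A second, dimmer probe set of Kcnq3 gave 954 and 1060, against 368 to 671 on the 14 arrays and 637 on the CA13-marked KO array. Kcna2, a low-threshold Kv1 channel of axons, had signals of 3530 and 3440 in the 2 libraries, against 1510 to 2830 in WT and 1600 to 2340 in KO, and its log2 difference was 0.88 (SE 0.14, adjusted p = 0.000401 by limma). Kcng1, a silent subunit that modifies other Kv channels, had 165 and 141, against 292 to 1120 in WT and 308 to 820 in KO (-1.98, SE 0.32, adjusted p = 0.000292 by limma). With these probe sets the 2 libraries lay outside the 14 arrays in both genes, and without the library labelled 433 neither gene passed. The next brightest Kcna2 probe set gave 1890 and 2020, within its 626 to 2040 on the 14 arrays, and the dim ones were also within their ranges. A dim second probe set of Kcng1 gave 17.5 and 26.5, within 5.78 to 55.1.

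The calcium- and sodium-activated channel genes called in this wider comparison were all higher. Kcnn2, an SK channel of the spike afterhyperpolarisation, had signals of 611 and 537, against 210 to 380 in WT and 310 to 438 in KO (1.04, SE 0.18, adjusted p = 0.000486 by limma). Kcnt1, a sodium-activated channel, had 373 and 405, against 92.6 to 254 in WT and 200 to 314 in KO (0.77, SE 0.19, adjusted p = 0.00967 by limma). Its other probe sets gave 239 and 409 against 54 to 402 on the 14 arrays, and 132 and 214 against 66.7 to 261. The call for Kcnn4 rested on the library labelled 433 alone, with 92.4 there and 18.2 on the CA13-marked WT array. Kcnmb2, a BK beta subunit, passed at an adjusted p of 0.048 by limma, although mark 437 gave a paired difference of 0.014 on the log2 scale.

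The leak channel and the rectifier that were called were both lower. Kcnk1 had signals of 3690 and 4310 in the CA-profile libraries, below all of the 14 arrays (-1.05, SE 0.17, adjusted p = 0.000324 by limma). A second probe set of Kcnk1 showed no such drop, at 162 and 110, within its 39.2 to 210 on the 14 arrays. Kcnj11, the pore of KATP channels that close when ATP is high, had 343 and 145, against 376 to 1130 in WT and 373 to 1100 in KO (-1.21, SE 0.31, adjusted p = 0.0151 by limma). Its dim second probe set gave 30.1 and 50.3, within 8.61 to 64.6 on the 14 arrays. Of the KATP channel, the regulatory subunit Abcc8 was also lower, at 290 and 462 against 516 to 1480 on the 14 arrays (adjusted p = 0.00315 by limma). No Kv4, KChIP, KCNE, Kv beta or EAG family gene was called with both libraries.

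**Figure D2:**
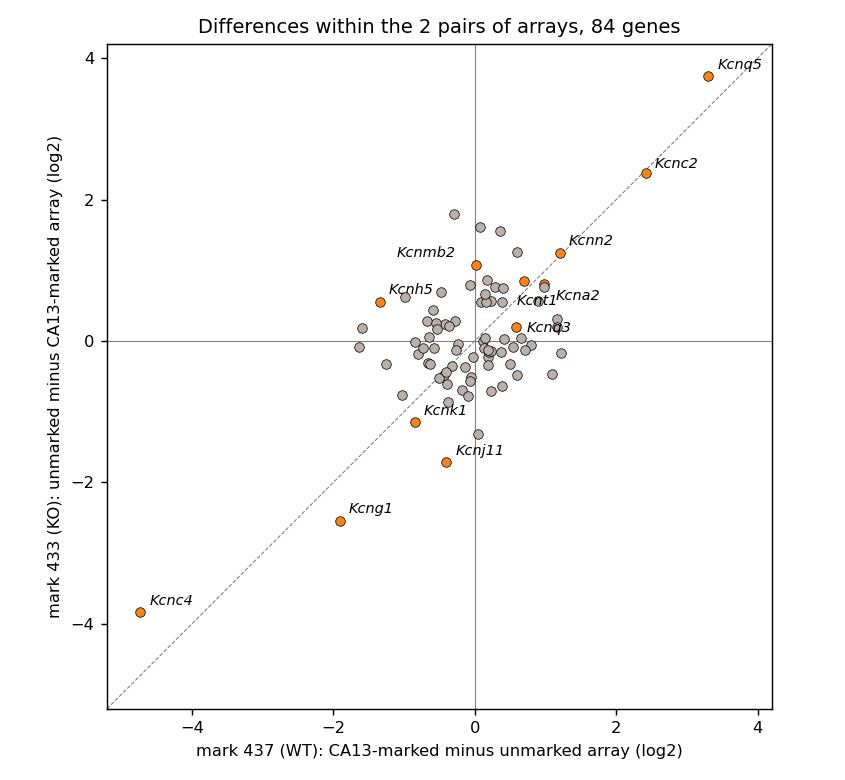
Log2 difference within mark 437 (CA13-marked minus unmarked, WT) on the horizontal axis and within mark 433 (unmarked minus CA13-marked, KO) on the vertical axis, with 1 point per gene for 84 genes and a dashed line of equality; orange points are the 12 genes outside the range of the 14 other arrays on the same side in both CA-profile libraries. Kcnc4, Kcng1, Kcnc2 and Kcnq5 lie far along the line, and most other genes scatter around 0.

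Loss of Foxo1, Foxo3 and Foxo4 was compared with WT over 7 and 7 arrays. None of the 84 genes passed an adjusted p of 0.05 by limma (0.0133% of all probe sets were called), and every adjusted p was 1. At an unadjusted p under 0.05, 2 members were higher in KO (Kcnk5 and Kcna5) and 3 lower (Kcnk4, Kcnh8 and Kcna4), where 1.8% of all genes were higher and 1.78% lower. The median difference was 0.0025 on the log2 scale, against 0.0074 over all genes, and 43 of 84 differences were above 0. The 95% interval lay within a 2-fold change either way for 71 of the 84 genes and reached or passed it for 13. In 0 of the 84 genes were KO and WT arrays fully apart (0.0715% of all genes). Markers of oligodendrocytes were 0.56 higher in KO on the log2 scale, with mean levels of 10.03 to 11.11 in KO and 9.307 to 10.49 in WT, and their part in the values of the members was not tested.

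Of these 5 genes, 2 were K2P channels. Kcnk4, a mechanically gated leak channel, had signals of 63.3, 102 and 151 in WT and 20.3, 62.9 and 85.7 in KO (-0.60, SE 0.227, exact permutation p = 0.02, two-sided). By signal the 4 lowest KO arrays lay below every WT array, the highest of them only just (62.9 against 63.3), and the other 3 fell among the WT arrays. After quantile normalization that array, KO 212, was above the lowest WT array (6.655 against 6.481 in WT MS17). The library labelled 433 was above the 7 KO arrays at 134, and its CA13-marked counterpart gave 18.1. Kcnk5, an acid-inhibited leak channel, had 10.5, 27.1 and 43 in WT and 22.7, 60.6 and 101 in KO (0.65, SE 0.236, exact permutation p = 0.024, two-sided). It was dim on most arrays, at 9.22 and 16 in the libraries of mark 433, and its difference was 0.84 within the large series and 0.19 within the small series. The smallest p that this design allows in the exact test is 0.00058.

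Kv1 genes went both ways. Kcna5, a delayed rectifier, had signals of 44.6, 190 and 239 in WT and 150, 245 and 328 in KO (0.60, SE 0.273, exact permutation p = 0.06, two-sided), and its difference was 0.83 within the large series and 0.013 within the small series. Kcna4, an inactivating channel of axons, had 2670, 3350 and 5190 in WT and 1940, 2880 and 3710 in KO (-0.35, SE 0.164, exact permutation p = 0.066, two-sided), and its second probe set gave -0.37. Kcnh8, an ELK channel of the EAG family, had 15, 28.9 and 77.9 in WT and 9.05, 16.1 and 49.2 in KO, all of them below the median probe set of their array (-0.40, SE 0.18, exact permutation p = 0.047, two-sided). Its difference was -0.19 within the large series and -0.91 within the small series, and that of Kcna4 -0.28 and -0.53. Kcnip1, a calcium-binding partner of Kv4, had 36.2, 89.5 and 122 in WT and 81.3, 107 and 130 in KO (0.30, SE 0.168, exact permutation p = 0.026, two-sided). It was 0.19 without WT replicate 1 (206), and the 3 other probe sets of Kcnip1 gave 0.062 to 0.61. In all of these genes the ranges of KO and WT overlapped. For the dim genes the size hung on the pseudocount, since with 1 in place of 32 the log2 difference was -0.93 for Kcnk4, 1.15 for Kcnk5 and -0.87 for Kcnh8, and with the highest pseudocount tried it was -0.31, 0.30 and -0.16. Among the genes with the next smallest p, Kcnj12, an inward rectifier of strong type, gave 0.49 (SE 0.257) and Kcnj4, another of that type, gave -0.48 (SE 0.268).

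**Figure D3:**
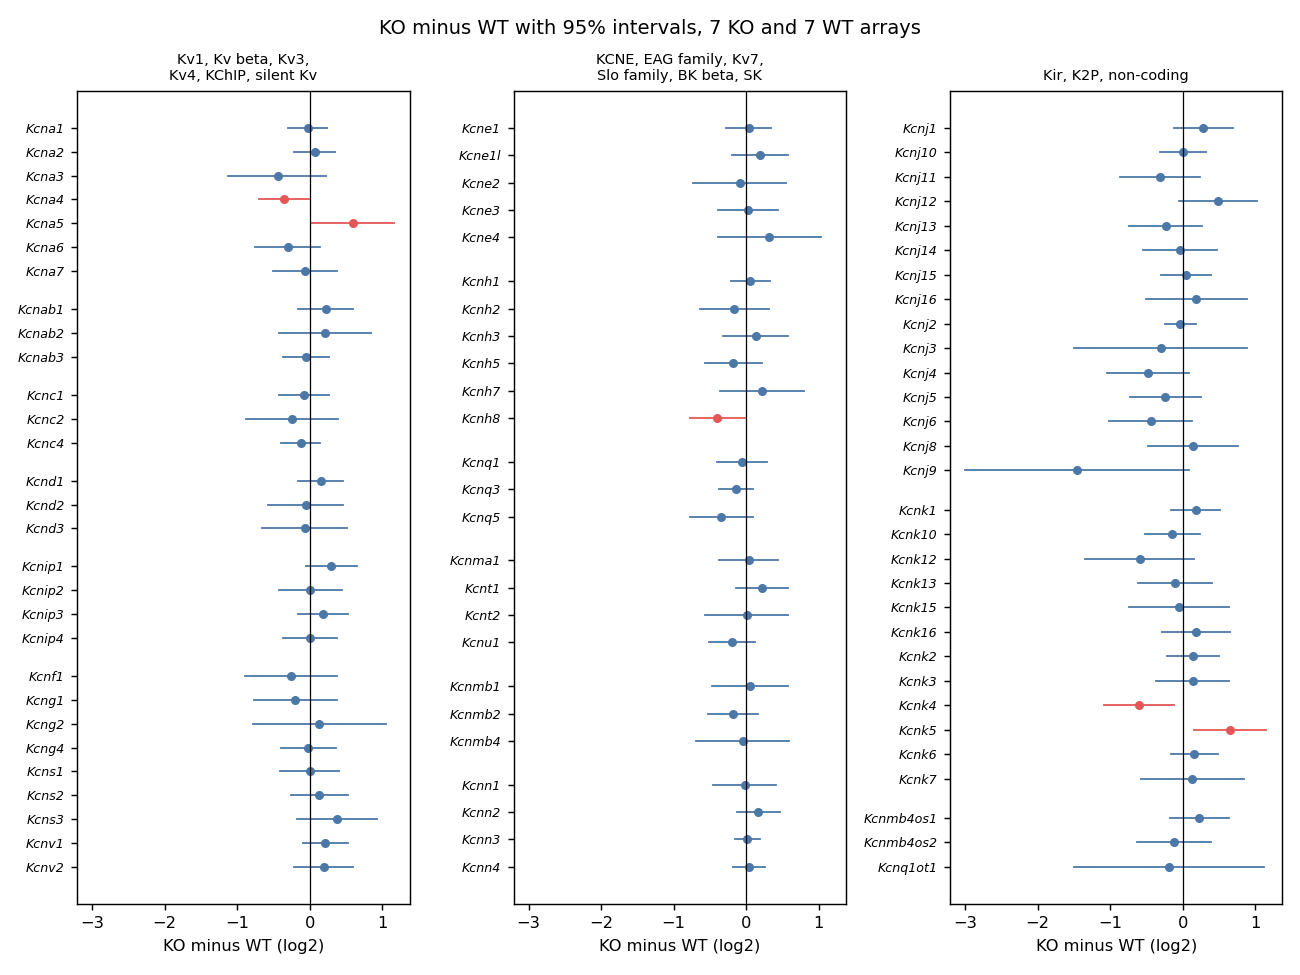
KO minus WT on the log2 scale (points) with 95% intervals (lines) for 84 potassium channel genes, grouped by family, from 7 KO and 7 WT arrays; red marks the 5 genes with an unadjusted p under 0.05. Most intervals cross 0, and the widest are those of Kcnj9, Kcnj3 and Kcnq1ot1.

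The widest spread between samples was in 2 inward rectifier genes and a non-coding RNA, singled out after their values were seen. The residual SD on the log2 scale was 1.6 for Kcnj9, 1.35 for Kcnq1ot1 and 1.24 for Kcnj3, against 0.107 to 0.919 for the 81 other members. Kcnj3, a subunit of the G protein-gated GIRK channels that mediate slow inhibition, had signals of 1760 to 2670 in WT 393, 392 and MS17 and of 10000 to 15100 in WT 41, 437, 206 and 385. The KO arrays parted in the same way, with 2490 to 3300 in MS15, 903, 391 and 384 and 7930 to 13000 in 390, 212 and 386. None of the 14 arrays lay between 3300 and 7930, though both arrays of mark 433 did (7530 and 5930). Neither genotype nor array series sorted the high from the low arrays. KO minus WT was -0.30 (SE 0.567) over the 14 arrays and turned with the series, at 1.35 within the small series and -0.96 within the large series. The pairs of arrays of 1 mark were closer, at 14000 and 10000 for mark 437 and 7530 and 5930 for mark 433. The 3 other probe sets of Kcnj3 were dim (24.7 to 221 on the 14 arrays) and their KO minus WT differences were -0.097 to 0.17.

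Kcnj9, another GIRK subunit, had the largest KO minus WT difference of the members without passing (-1.46, SE 0.731, 95% interval -3 to 0.09, exact permutation p = 0.12, two-sided), and its 3 other probe sets gave -0.24 to -0.038. The KO arrays gave 113, 164, 226 and 236 in 391, 390, 384 and 212, and 2026, 2602 and 3865 in 386, 903 and MS15. WT arrays gave 400 in 385 and 1180 to 3540 in the 6 others. The KO arrays thus lay in a group of 4 below every WT array and a group of 3 among them, and the difference was -3.02 within the small series and -0.84 within the large series. Kcnj6, a further GIRK subunit, had signals of 59.8, 121 and 210 in WT and 20.5, 90.1 and 108 in KO (-0.44, SE 0.273). Its difference was 0.21 within the small series and -0.70 within the large series, and its other probe sets gave -0.065 to 0.3. The GIRK subunit Kcnj5, bright on none of the 14 arrays, gave -0.24 (SE 0.232).

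Kcnq1ot1 is the antisense RNA that silences its imprinted neighbourhood on the paternal chromosome. Its brightest probe set moved with the array series: the 4 arrays of the small series gave 171 and 327 in KO and 176 and 195 in WT, and the 10 arrays of the large series gave 515 to 2890 in KO and 627 to 1850 in WT. No array of the small series reached the lowest of the large series. KO minus WT of the brightest probe set was -0.19 (SE 0.619) over both series, 0.30 within the small series and -0.39 within the large. The 5 other probe sets gave -0.19 to 0.20. The next brightest of these spanned only 586 to 1570 and 245 to 391 on the 14 arrays, where the brightest spanned 171 to 2890. Their split by series was not examined. What set the series apart is not given in the labels, and its part in these values was not tested. In all, 5 of the 84 members were fully apart between the 4 arrays of the small series and the 10 of the large one, where 5.96% of all genes were. The 4 others, named after their values were seen, were Kcnmb4 (1340 to 1720 in the small series, 503 to 696 in the large), Kcna1 (6010 to 8170 and 4790 to 5850), Kcnmb4os2 (268 to 510 and 120 to 231) and the sodium-activated Kcnt2 (1280 to 2400 and 3000 to 5510).

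**Figure D4:**
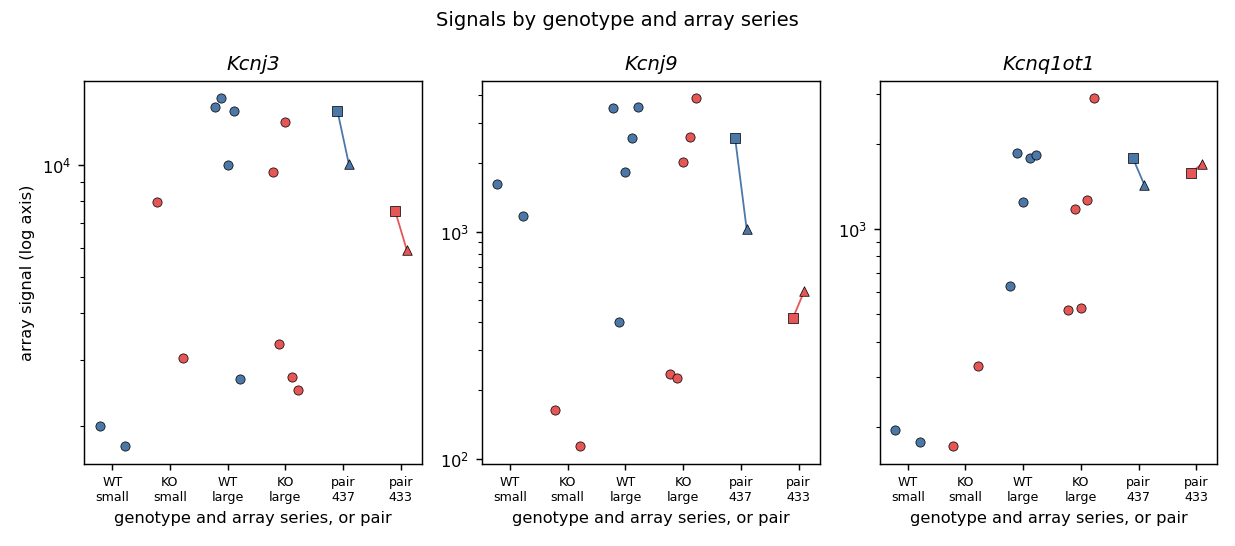
Array signal on a log axis of Kcnj3, Kcnj9 and Kcnq1ot1, with 1 point per array by genotype (WT blue, KO red) and array series, and at the right the 2 arrays of mark 437 and of mark 433 joined by a line (square unmarked, triangle CA13-marked). Among the 14 arrays Kcnj3 forms a low and a high cluster in both genotypes, and Kcnj9 does so in KO. In both genes the pair of mark 433 lies between the KO clusters. The brightest probe set of Kcnq1ot1, shown here, is low in all 4 arrays of the small series.

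Partners of potassium channels outside the naming rule were taken from a list of 22, of which 20 were measured. None was called between KO and WT by limma, with 1 lower at an unadjusted p under 0.05, and 2 of 20 were called higher on the CA13-marked WT array, where 1.2% of all genes were. Cntnap2, which clusters Kv1 channels along axons, had signals of 14300 there and 13900 in the library labelled 433, against 1250 to 4120 on the 14 arrays (2.55, SE 0.47, adjusted p = 0.00622 by limma). Adam23, a receptor for LGI proteins at synapses, had 13500 and 15600, against 2590 to 4880 (1.78, SE 0.31, adjusted p = 0.00385 by limma). Within marks, Cntnap2 differed by 3.32 in mark 437 and by 2.7 in mark 433 on the log2 scale. Adam23 differed by 1.62 in mark 437 and by a smaller 0.998 in mark 433. That smaller difference from 15600 leaves the granule-profile CA13-marked KO array above 4880 too, so it was also above the 14 arrays. With both CA-profile libraries 2 partners were called higher, where 7.28% of all genes were, and 4 lower, where 6.35% were: Abcc8, Lgi1, the scaffold Dlg1 and the ubiquitin ligase Nedd4l. Lgi1, a secreted protein that modulates Kv1 channels, had 3270 and 3630, against 5640 to 13100. Dlg1 had 8950 and 6570, against 8960 to 16700, so that the CA13-marked WT array was at the edge of the range. Nedd4l had 5340 and 6190, against 5740 to 11800, so that the library labelled 433 was within it.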

How the data were processed

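Affymetrix mouse arrays had been used to measure RNA of dentate gyrus obtained by laser capture (8 KO and 7 WT samples, plus 2 with the CA13 mark). The deposited table holds signal intensity on a linear scale for 17 arrays, which the authors had summarised per probe set and scaled. MAS5 is the tool in the submitters' processing notes, whereas the study's methods give RMA followed by SAM, which were not repeated on these values. The number of arrays limits the precision. All 17 arrays were used as columns of 1 table.

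Values were log2(signal + 32), brought to common quantiles over the 17 arrays, without 64 control probe sets. Models with an intensity trend were fitted over the 45037 others by limma (version 3.58.1, R version 4.3.3), and the Benjamini-Hochberg adjustment ran over all of them. A fold change is on the log2(signal + 32) scale and so understates changes of dim genes. KO and WT were compared without covariates. The CA13-marked WT array was fitted as a group of its own. Exact permutation tests ran over 3432 arrangements of 14 arrays. In a test on simulated data for KO against WT, 50.7% of probe sets changed by 1 on the log2 scale and 93.9% of those changed by 2 were recovered among 45037. For the single CA13-marked array it was 4.48% and 55.2%. Symbols came from the platform annotation (34945 probe sets with 1 symbol, 932 with several and 9160 with none), and all 84 members matched RefSeq by Entrez ID. Promoter windows were those of RefSeq.

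Genes named are those called, the 8 per direction with the smallest p between KO and WT, the 12 per direction for the CA13-marked array, and a list of 21 genes, of which 18 were measured. A gene singled out otherwise is said to be so. The members and lists were chosen with earlier results of these data known. Alternatives were other sets of arrays, array series, the Gapdh 3' to 5' ratio, the pseudocount, normalization, a filter on dim probe sets, other probe sets, and leaving out each array. The spread estimated from WT arrays alone was added after seeing the data.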

Additional observations from a re-analysis of the deposited data

Results flagged for a closer look

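In 4 of 96 groups of 7 arrays (48 named genes, KO and WT), the lowest or highest array lay farther from its neighbour than Dixon's 95% critical value allows, as a share of the range, and chance gives about 5% of groups. Kcnq1, a Kv7 channel, was highest in KO 390 at 66.5, with 22.6 next (0.776 of the log2 range). Kcnt1 was lowest in WT 206 at 92.6, with 195 next (0.701). Kcnh8 was highest in KO MS15 at 49.2, with 22 next (0.591), and Kcnh7, an ERG channel, was lowest in KO 903 at 11.3, with 50.6 next (0.571). None of these 4 genes was called between KO and WT.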

How the results depend on the processing

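Between KO and WT, 0 members were called under every alternative run, and the count at an unadjusted p under 0.05 ran from 1 to 7 (5 as reported, 3 with the library labelled 433, 2 with the CA13-marked library of mark 433). For the CA13-marked WT array, the 3 called genes became 12 with both CA-profile arrays and the mark as a random block (correlation 0.544), 8 higher and 4 lower. With the Gapdh ratio as a covariate 1 was higher, since Kcnc2 had an adjusted p of 0.0642 by limma. Leaving out 1 array gave 1 to 3 higher and 1 to 2 lower. Kcna2 passed without WT replicate 4 (adjusted p 0.0414 by limma) and Kcnk1 without KO replicate 3 (adjusted p 0.0479 by limma). Kcnc4 stayed between -4.78 and -3.92 and Kcnq5 between 3.05 and 3.50 on the log2 scale, and both passed in each alternative that gave a test. No called value changed sign. Of 46 members with several probe sets, these differed in sign in 24 between KO and WT and in 28 for the CA13-marked array. Replicate numbers follow accession order and pair no KO with WT arrays, so KO and WT had no paired fit. The mark, which joins 2 arrays each for 437 and 433, entered only as the random block above and as the differences within marks. Depth is not known for arrays: 22 members were at or below the median probe set on all 14 arrays, and changes in them are the least well measured.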

Other observations

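Within mark 433, some members that were alike in the pair of mark 437 differed between the unmarked and the CA13-marked array. Kcnk4 gave 134 and 18.1 there, against 84.9 on the CA13-marked and 106 on the unmarked array of mark 437. Kcnd1, a Kv4 subunit, gave 380 and 130, against 285 and 219, but its next brightest probe set gave 318 and 282, against 231 and 171. Kcnn4, an intermediate-conductance channel gated by calcium, gave 92.4 and 8.91, against 18.2 and 14.7. A second, dimmer probe set of Kcnn4 showed no such gap, at 7.63 and 5.56, against 3.65 and 2.75. The 3 genes were picked after their values were seen, and these are single arrays with no replicate.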
